A study of Mus musculus with 4 samples.

Results

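Tbx2, Tbx3, Tbx5, Tbx18 and Tbx20 are the T-box transcription factor genes best known from heart formation, and they were followed here across early cardiopharyngeal development. They were picked out by symbol, as 5 of the 27998 genes listed in the count matrices. The rule used no measured value, but it was set with earlier results of these data known. The measurements were single-cell transcriptomes of mouse embryos in the Swiss Webster strain with the genotype Mesp1Cre;Rosa26-GFPflox/+, in which Cre made from the Mesp1 locus switches on GFP in early mesoderm and in everything that descends from it. GFP+ DAPI- (live, lineage-labelled) cells of pooled embryos were sorted from the upper body (E8.0, E8.25) or from the heart and pharyngeal apparatus (E9.5, E10.5). Each stage was 1 library of untreated embryos, so no stage had a replicate, the dissected region changed between E8.25 and E9.5, and cells outside the Mesp1Cre lineage were removed by the sort. No difference between stages could therefore be tested: intervals given for single libraries are exact 95% Poisson or Clopper-Pearson intervals and cover counting error only.

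T-box proteins bind DNA through a shared domain and act as activators or repressors of heart genes. In textbook accounts, Tbx5 and Tbx20 work with Nkx2-5 and Gata4 to switch on the genes of working chamber muscle, while Tbx2 and Tbx3 repress those genes in the atrioventricular canal, the outflow tract and the pacemaker regions. Tbx18 marks the sinus horns at the venous pole, the proepicardium and epicardium that cover the heart, and the anterior part of each somite. Several members also have roles outside the heart, in limb and body wall mesoderm.

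The members lie on 3 chromosomes of the GRCm38.p6 (mm10) assembly. Tbx3 (ENSMUSG00000018604) lies at chr5:119670534-119684724 and Tbx5 (ENSMUSG00000018263) at chr5:119796514-119885220, as neighbours with 112 kb between them. Tbx2 (ENSMUSG00000000093) is at chr11:85832615-85841948, and Tbx20 (ENSMUSG00000031965) and Tbx18 (ENSMUSG00000032419) are both on chromosome 9, at chr9:24720812-24774303 and chr9:87702800-87731260. All 5 are protein coding. The RefSeq promoter table for this build, with windows from 250 bases before to 50 bases after each transcript start, matched 2 of the 5 members. Both matched windows are shown, as the sequence around the starts of Tbx20, called higher in cardiomyocytes, and of Tbx18, called higher in the mesothelial gate. The first is chr9:24774254-24774553 and the other chr9:87731211-87731510, both on the minus strand and read 5′ to 3′. Capitals mark the only match to the NKE motif, the Nkx2-5 binding element, searched as TNAAGTG on both strands.
Tbx20: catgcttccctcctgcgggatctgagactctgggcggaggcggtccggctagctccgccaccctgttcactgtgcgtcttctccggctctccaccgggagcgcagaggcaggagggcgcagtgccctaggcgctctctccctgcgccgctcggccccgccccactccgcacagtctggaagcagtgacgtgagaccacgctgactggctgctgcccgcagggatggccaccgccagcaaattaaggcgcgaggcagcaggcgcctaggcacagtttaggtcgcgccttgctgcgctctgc
Tbx18: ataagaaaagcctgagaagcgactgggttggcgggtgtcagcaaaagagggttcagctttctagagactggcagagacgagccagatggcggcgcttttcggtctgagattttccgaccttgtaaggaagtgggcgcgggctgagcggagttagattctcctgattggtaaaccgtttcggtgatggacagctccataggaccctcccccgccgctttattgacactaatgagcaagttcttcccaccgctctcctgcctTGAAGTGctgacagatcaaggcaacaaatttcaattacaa
The Tbx20 window was 68.3% G and C, and the Tbx18 window 51.7%. The NKE letters had 1 match in the Tbx18 window and 0 in the Tbx20 window, against 11.5% of all 32851 promoter windows that hold them. The T-box core GGTGTGA, held by 3.98% of all windows, and the GATA motif AGATAA, held by 11.2%, had 0 matches in either window.

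The matrices held 7581, 2956, 4055 and 8070 cells in stage order (E8.0, then E8.25, E9.5, and last E10.5), and 7118, 2884, 3921 and 7525 of them were retained after filters on genes per cell, mitochondrial share and doublet score. Median depth in retained cells ran from 15205 UMIs (unique molecular identifiers, counted RNA molecules) at E10.5 to 35216 at E8.25. Shares of cells with a UMI follow depth, so the main ones are also given after thinning every cell to 5000 UMIs, which left out 23 shallower cells at E9.5. Pairs of libraries shared 16 to 88 cell barcodes, where random draws from the list of possible barcodes would give 16.3 to 83.0. Cells were assigned to compartments by fixed marker lists (gates), none of which holds a member. In stage order 327, 58, 460 and 244 cells were cardiomyocytes (by sarcomere genes such as Tnnt2 and Myl7), 473, 191, 193 and 367 were endothelial cells (by Pecam1, Cdh5 and others), and 1156, 421, 887 and 899 were posterior second heart field cells (by Osr1, Foxf1, Hoxb1 and others). Myh7, a myosin gene left out of the gates, stood at 251 to 748 CPM (gene UMIs scaled to the same total of all UMIs, counts per 1e6) in the cardiomyocyte sums, and at no more than 8.86 CPM in the sums of the other gates apart from the anterior second heart field at E10.5, and Ramp2, an endothelial gene also left out, at 548 to 886 CPM in the endothelial sums. Erythroid cells, which should lack all 5 genes, served as the background for stray RNA. Their highest value was 3.08 CPM of Tbx20 at E8.0, in 10.4% of 67 cells with a median of 35904 UMIs, and at E10.5 it was 2.43 CPM of Tbx20, in 6.44% of 1025 cells with a median of 28090 UMIs. At E9.5 there were 4 erythroid cells, too few to give a background.

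Over all retained cells, each member had its own course through the 4 libraries. Tbx2, a repressor of chamber genes, stood at 4.45 CPM (95% interval 4.12 to 4.80) at E8.0, and then at 0.943 (0.767 to 1.15), 4.69 (4.20 to 5.22) and 12.5 CPM (11.9 to 13.2) in the later libraries. It was thus lowest at E8.25 and highest at E10.5, and only the E8.0 and E9.5 intervals overlapped. Its close relative Tbx3 stood at 41.1, 6.70, 21.4 and 27.6 CPM in the same order, and was detected in 33.8, 14.0, 22.4 and 23.2% of cells. Tbx5 and Tbx18 were both low in the early libraries and higher in the late ones. Tbx5 had 6.11, 5.52, 34.6 and 27.0 CPM, with E8.0 and E8.25 inside each other's counting error (1.11-fold, 0.998 to 1.23). Tbx18 had 5.52, 9.33, 42.3 and 25.9 CPM. Tbx20 had 59.7, 4.95, 17.7 and 45.3 CPM, high in the first and last libraries and low in the middle pair. After thinning, 17.7, 2.57, 7.77 and 9.09% of cells had a Tbx20 UMI, against 33.3, 10.7, 15.6 and 14.8% at full depth.

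**Figure D1:**
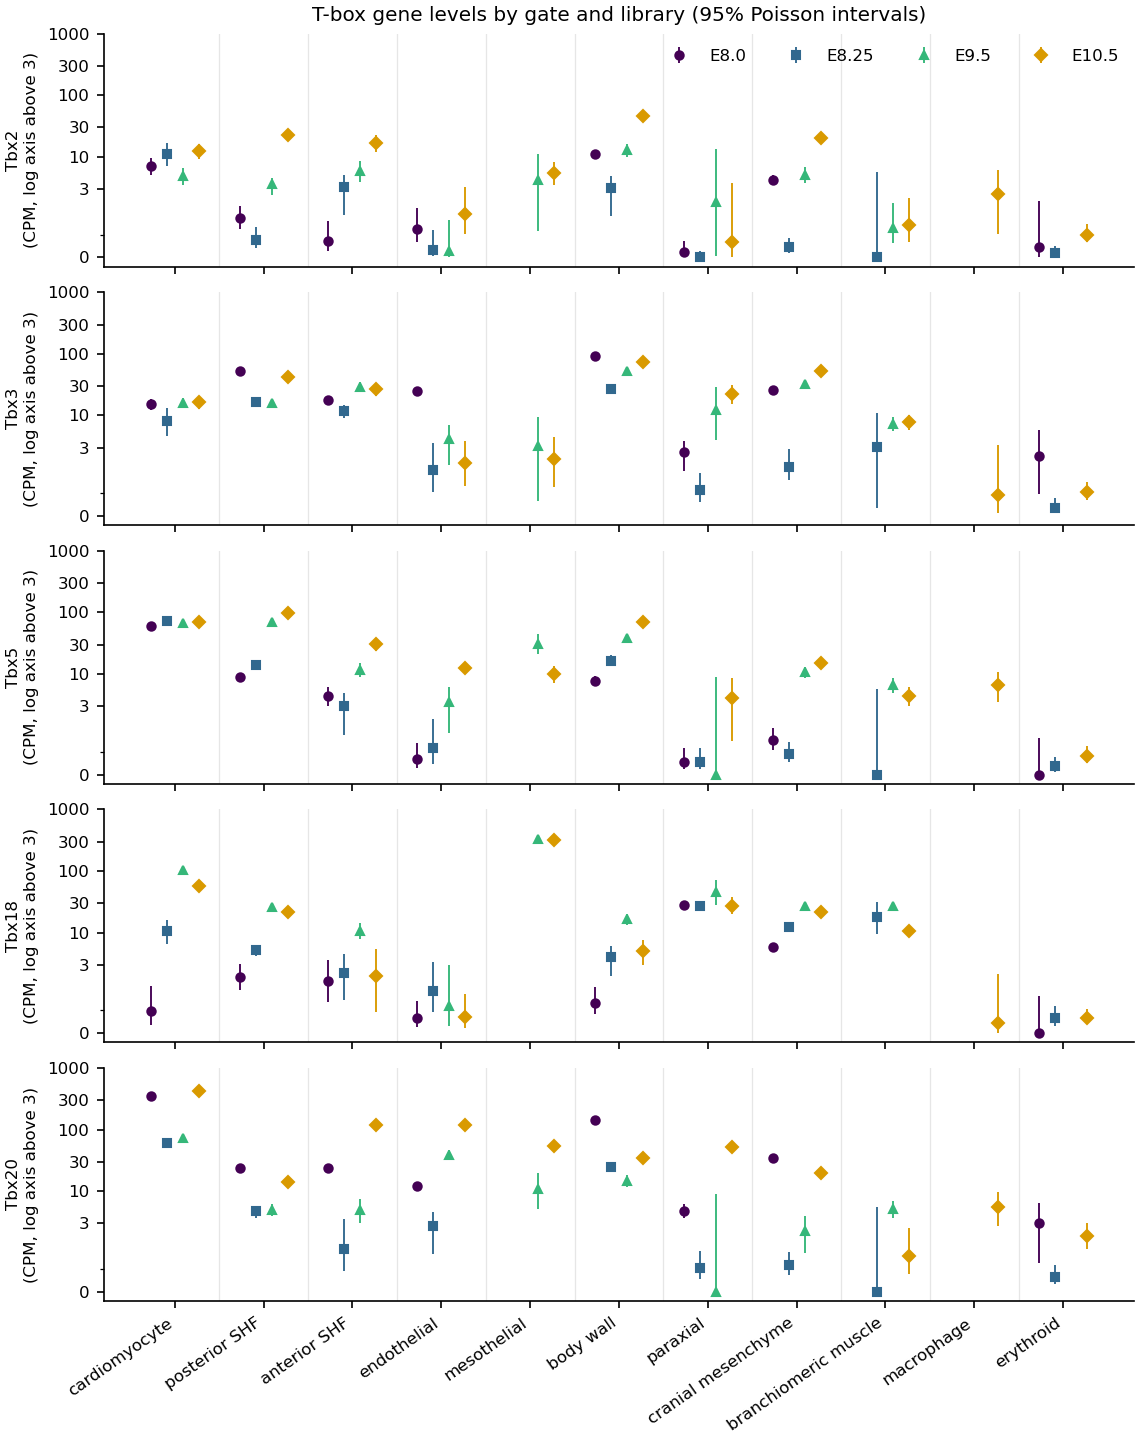
Level of each T-box gene in each marker gate (CPM of summed UMIs, on an axis that is linear up to 3 CPM and log above), with 1 point per library and exact 95% Poisson intervals as bars. Tbx20 at E8.0 and E10.5 in cardiomyocytes (358 and 431 CPM) and Tbx18 at E9.5 and E10.5 in the mesothelial gate (333 and 323 CPM) are the highest points of their panels.

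The compartments that held the UMIs of a member changed with the library. So did the sizes of the gates, and these shares follow gate size as well as level. Of all Tbx5 UMIs, the posterior second heart field gate (progenitors that feed the venous pole) held 26.4, 40.7, 48.0 and 40.3% in stage order, and cardiomyocytes 40.8, 24.8, 23.1 and 8.23%. At E10.5 cranial mesenchyme, with 11.5%, and cells in no gate, with 17.4%, held more of them than cardiomyocytes did. The paraxial gate (by somite genes such as Meox1 and Tcf15) held the largest share of Tbx18 UMIs early on, with 41.2% at E8.0 and 33.4% at E8.25. At E9.5 cardiomyocytes held 28.9% of Tbx18 UMIs, and at E10.5 the mesothelial gate (proepicardium and epicardium) held 42.6%. Between these libraries cardiomyocytes went from 11.7 to 3.24% of retained cells and the mesothelial gate from 1.12 to 2.66%. The mesothelial level of Tbx18 was 333 and then 323 CPM, and the cardiomyocyte level 104 and then 56.9 CPM. Tbx20 UMIs were spread over cardiomyocytes, with 24.8, 22.9, 49.3 and 30.6%, and the body wall and septum transversum gate, with 27.3% at E8.0 and 26.3% at E8.25. At E10.5 cranial mesenchyme held 32.8% of Tbx2 UMIs and 39.2% of Tbx3 UMIs, and cells in no gate held 25.1% of Tbx20 UMIs. These last cells carried Tbx20 unevenly, since 12.2% of 1749 ungated cells had any and those had 6.84 UMIs each. The paraxial gate at E10.5 went further: its 52.9 CPM of Tbx20 came from 4.26% of 94 cells with 19.8 UMIs each.

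Cardiomyocytes had more Tbx20 and more Tbx5 than the other cells of the same library at every stage, and these were 2 of the 5 members to pass the test, in a comparison where 30.6% of the 13873 genes tested were called and 15.2% were called higher. Tbx20 stood at 358, 60.7, 74.3 and 431 CPM in cardiomyocytes, in stage order, and at 46.9, 3.89, 10.2 and 32.5 CPM in the other cells. Each cardiomyocyte sum was above the other cells of its own library, although the cardiomyocyte sum at E8.25 was close to the other cells at E8.0. Tbx5 stood at 60.3, 73.3, 67.8 and 69.0 CPM in cardiomyocytes and at 3.78, 4.23, 30.1 and 25.6 CPM elsewhere. Over all cardiomyocytes Tbx5 was thus nearly level from library to library, while the level in the other cells moved. It was not level within regions of the heart. From E8.0 to E10.5 ventricular cardiomyocytes went from 63.5 to 8.99 CPM (0.142-fold, 0.0377 to 0.378). Atrioventricular canal cells went from 71.6 to 27.6 CPM (0.386-fold, 0.233 to 0.612), and outflow cells from 24.1 to 8.49 CPM. The mix of regions changed too, with 16 atrial cells of 327 at E8.0 and 117 of 244 at E10.5. In edgeR's quasi-likelihood test with the library as a block and Benjamini-Hochberg adjustment, the log2 fold change was 3.33 ± 0.18 (SE, n = 4 libraries) for Tbx20 with an edgeR adjusted p of 4.68e-05. For Tbx5 it was 2.61 ± 0.60 with an edgeR adjusted p of 0.0178. Without the E8.25 library the Tbx5 change was 2.11 with an edgeR adjusted p of 0.0579 and was no longer called.

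The other 3 members did not pass the test in cardiomyocytes. Tbx3 stood at 15.3, 8.09, 15.9 and 16.3 CPM in cardiomyocytes and at 42.2, 6.67, 22.2 and 27.9 CPM in other cells, and its change on the log2 scale was -0.75 ± 0.24 with an edgeR adjusted p of 0.0544. Leaving out E8.25, the library in which its direction was opposite, gave -0.92 and an edgeR adjusted p of 0.0333. Tbx2 stood at 7.02, 11.1, 4.82 and 12.4 CPM against 4.34, 0.750, 4.67 and 12.5 CPM, an excess seen mainly at E8.25, with an edgeR adjusted p of 0.303. Tbx18 stood at 0.957, 10.6, 104 and 56.9 CPM in cardiomyocytes against 5.72, 9.30, 34.0 and 24.8 CPM elsewhere, with an edgeR adjusted p of 0.426. It was below the other cells at E8.0 and above them in the 3 later libraries, and without E8.0 its log2 fold change was 1.09 with an edgeR adjusted p of 0.0295. At E8.0 only 6 Tbx18 UMIs were counted in 327 cardiomyocytes.

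The other gene groups showed what surrounded the members in these cells. Of the chamber genes tested, 7 of 9 were higher in cardiomyocytes and 1 was lower, with a median log2 fold change of 4.74 against -0.04 over all genes. Nppa, the atrial natriuretic peptide gene of chamber muscle, rose by 8.46 ± 0.58 on the log2 scale, while Gja1, a gap junction gene, fell by 1.53. Of the cardiac partner factors, 7 of 10 were higher (median 2.15), led by Myocd (5.05 ± 0.17) and Nkx2-5 (4.86 ± 0.20). Of the atrioventricular canal and inflow genes 3 of 8 were higher, among them the pacemaker channel gene Hcn4 (4.16 ± 0.38) and the signal gene Bmp2 (2.27 ± 0.27), and 1 was lower (median 1.12). Of the 4 other T-box family genes tested (median -1.34), 2 were lower. Tbx1, a pharyngeal mesoderm factor, fell by 2.75 ± 0.40 and Tbx4, a hindlimb and allantois factor, fell by 2.93 ± 0.55.

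Tbx20 had a split between libraries that most genes did not share. In cardiomyocytes its CPM was 5.89-fold higher (95% counting interval 4.90 to 7.14) at E8.0 than at E8.25, and 5.81-fold higher (5.30 to 6.37) at E10.5 than at E9.5. The first and last libraries therefore lay together and far from the middle pair, which does not follow the order of the stages. The same pair stood high in the anterior second heart field gate, with 23.4, 1.89, 4.87 and 120 CPM, in the posterior one, with 24.0, 4.69, 4.91 and 14.3 CPM, and in cranial mesenchyme, with 33.9, 1.16, 2.68 and 19.6 CPM. Endothelial cells had another order, with 11.9, 2.87, 39.0 and 119 CPM. The body wall gate had 145, 25.1, 14.6 and 34.9 CPM, so that E10.5 was less than 2-fold above E8.25 there. Among the other members Tbx3 had such a split in the posterior gate, with 53.0, 16.7, 15.7 and 41.3 CPM. Of 6210 genes reaching 20 CPM in a cardiomyocyte sum, 18 (0.290%) were over 2-fold higher in both the first and the last library than in either of the others. Tbx20 had the widest gap of these 18. The genes with such a split in all 6 of the gates examined were Arf3, the ribosomal protein pseudogene Rps26-ps1 and the mitochondrial gene mt-Atp8, chosen after their values were seen. Rps26-ps1 stood at 866, 283, 227 and 985 CPM in cardiomyocytes, and mt-Atp8 at 94.3, 32.4, 11.2 and 161 CPM. Whether the split of Tbx20 and that of these genes have the same source was not tested. The test of cardiomyocytes against other cells compares cells within each library, and Tbx20 was higher there in 4 of 4.

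**Figure D2:**
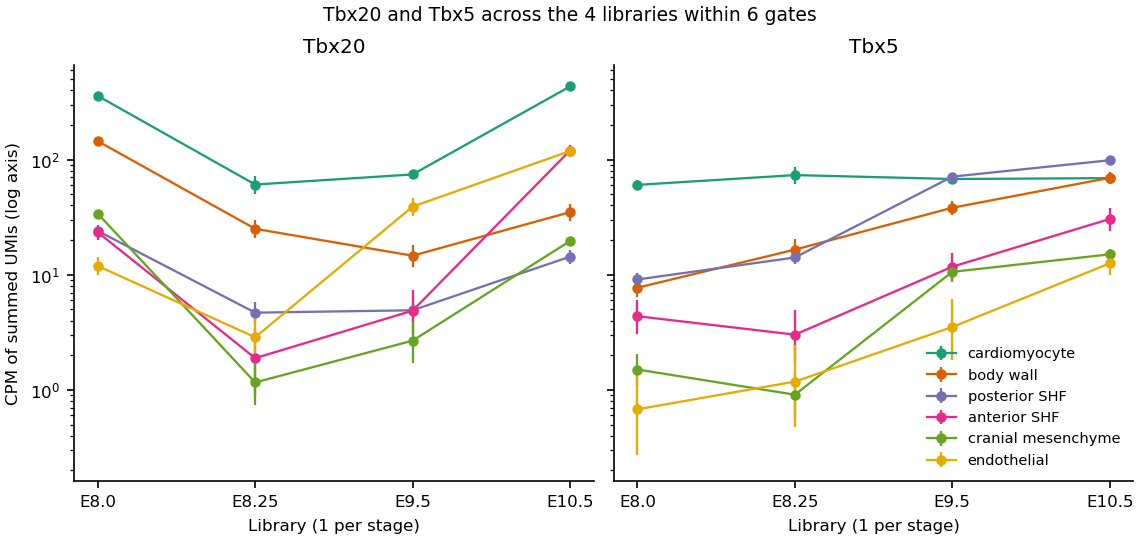
Tbx20 and Tbx5 levels (CPM of summed UMIs, log axis) in 6 marker gates, with 1 point per library joined by a line for each gate and exact 95% Poisson intervals as bars (SHF, second heart field). Tbx20 in cardiomyocytes is high at E8.0 and E10.5 (358 and 431 CPM) and low between, while Tbx5 there keeps between 60.3 and 73.3 CPM.

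Within cardiomyocytes the members were also read by region of the heart, and of these Tbx5 was called between atrial and ventricular cells. The atrial and inflow sub-gate held 16 cells at E8.0 and 18 at E8.25, and every sub-gate at E8.25 was under 20 cells. The late libraries were therefore used. They held 214 and 117 atrial and inflow cells and 94 and 21 ventricular cells. The atrioventricular canal had 59 and 51 cells and the outflow tract 37 and 22. The E8.0 library also held 61 ventricular, 75 canal and 69 outflow cells. Tbx5 was highest in atrial cells, at 95.5 CPM (86.2 to 106) in the E9.5 library and 118 (103 to 134) in the E10.5 library. In ventricular cells it stood at 29.3 and 8.99 CPM, in the canal at 74.8 and 27.6 CPM, and in the outflow tract at 7.18 and 8.49 CPM. The outflow sums held 556901 and 353376 UMIs of all genes, and the ventricular sum at E10.5 held 444748. Values of a few CPM there, for Tbx5 and for the members below, rest on a handful of UMIs. Against ventricular cells, atrial Tbx5 was higher by 2.02 ± 0.36 on the log2 scale (SE, n = 2 libraries) with an edgeR adjusted p of 0.0291, as 1 of the 4 members tested where 4.09% of 9280 genes were called. Under looser gates, where 3 libraries entered the fit instead of 2, it was 1.47 with an edgeR adjusted p of 0.172. The gating and the set of libraries changed together there, so their parts in the lost call cannot be told apart.

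Tbx18 among cardiomyocytes was highest in atrial and inflow cells at E9.5, where it stood at 187 CPM (174 to 201) against 40.2 in the canal, 10.7 in ventricular cells and 0 of its UMIs in 37 outflow cells. That 0 allows at most 6.62 CPM. At E10.5 the 4 regions lay between 45.0 and 53.9 CPM with overlapping intervals. The atrial against ventricular change of 2.49 ± 0.75 had an edgeR adjusted p of 0.123. Tbx3 was highest in the atrioventricular canal, at 62.5 CPM (47.2 to 81.2) in the E9.5 library and 30.1 (19.3 to 44.8) in the E10.5 library, against 13.1 and 14.8 CPM in atrial cells and 6.39 and 2.25 CPM in ventricular cells. Tbx2 had 20.1 and 17.6 CPM in the canal and 1.24 and 15.8 CPM in atrial cells, so at E10.5 its canal and atrial intervals overlapped. In outflow cells Tbx3 stood at 10.8 and 5.66 CPM and Tbx2 at 8.98 and 2.83 CPM. Tbx20 was present in every region and highest in the canal, at 155 CPM (130 to 183) and then 688 (631 to 748). Outflow cells had 89.8 and 569 CPM of Tbx20, and at E10.5 their interval overlapped that of the canal. Its atrial and ventricular levels went opposite ways in the 2 libraries, with 51.0 against 72.5 CPM in the earlier and 348 against 256 CPM in the later.

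**Figure D3:**
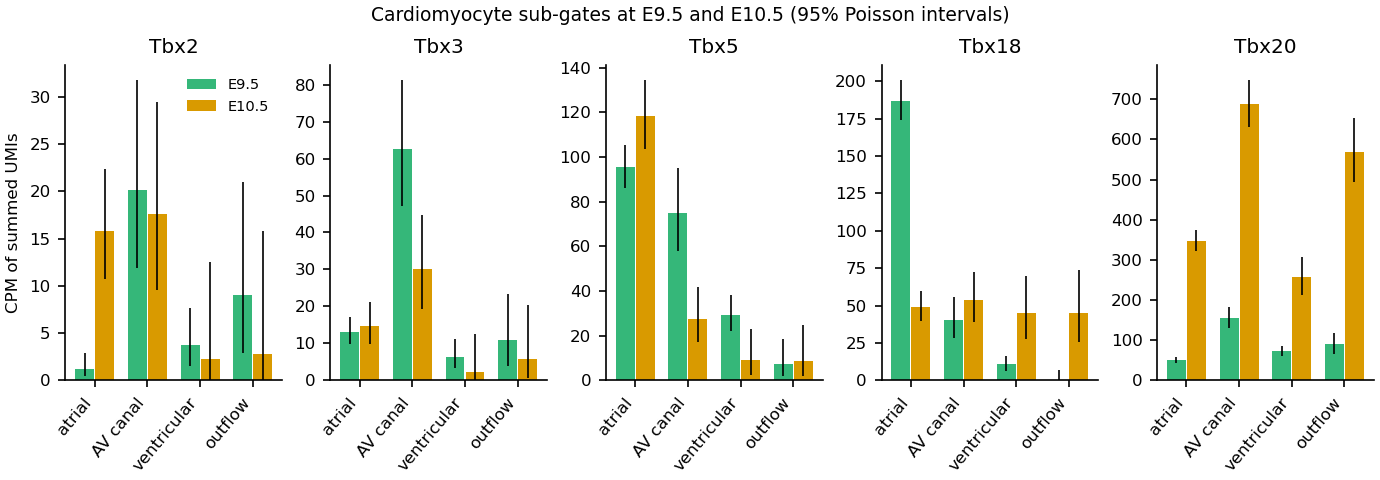
Levels of the 5 genes (bars, CPM of summed UMIs on linear axes from 0 that differ between panels) in atrial, ventricular, atrioventricular canal and outflow cardiomyocytes at E9.5 and E10.5, with exact 95% Poisson intervals. Tbx5 is highest in atrial cells in both libraries, while Tbx3 and Tbx20 are highest in the canal, with overlapping canal and outflow intervals for Tbx20 at E10.5.

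Cardiomyocytes with a Tbx2 or Tbx3 UMI were compared with those without, to see which other genes went with these repressors. There were 91, 24, 100 and 62 such cells against 236, 34, 360 and 182 without. The chamber gene Nppa was lower in them and 3 genes of the canal were higher. Nppa had 2.57, 22.4, 147 and 211 CPM against 6.94, 129, 563 and 368 CPM, lower in 4 of 4 libraries. Its log2 fold change was -1.52 ± 0.15, with an edgeR adjusted p of 4.66e-07. Nppa was the only one of the 7 chamber genes tested to be called. Of the 7 canal and inflow genes tested (median log2 fold change 0.48 against 0.00 over all genes), 3 rose, namely Rspo3, a Wnt pathway agonist (1.20 ± 0.14), Msx2, a BMP-responsive homeobox gene (1.17 ± 0.19), and Bmp2 (0.86 ± 0.19). Each of these 3 was higher in 3 of 4 libraries and lower at E8.25, where the positive group had 24 cells. Across all genes, 67 of 9237 were called (0.725%), counting Tbx2 and Tbx3, which defined the groups and carry no information here. The largest rises, beside Rspo3 and Msx2, were in Myoz2, a sarcomere protein gene, Gal, which encodes the neuropeptide galanin, and Tppp3, and the largest falls, beside Nppa, in the Wnt ligand gene Wnt5a, in Cited1, in Cthrc1 and in the cadherin gene Cdh3.

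Tbx5 was itself higher in the cells with Tbx2 or Tbx3. It stood at 80.7, 83.2, 96.0 and 98.4 CPM in them and at 51.1, 66.6, 59.0 and 58.5 CPM in the others, without overlap between the groups. The log2 fold change was 0.64 ± 0.10 with an edgeR adjusted p of 0.000333. Under looser gates it was 0.62 with an edgeR adjusted p of 0.131. With groups set on thinned cells, where only 3 libraries entered the fit, it was 0.64 with an edgeR adjusted p of 0.165. Positive cells were slightly deeper at every stage, for example with a median of 20807 against 18734.5 UMIs at E8.0, and the part of depth in this result was not tested beyond the thinned groups. Tbx20 was higher by 0.28 ± 0.09 in 4 of 4 libraries, with an edgeR adjusted p of 0.212, and Tbx18 differed by -0.12 with an edgeR adjusted p of 0.949.

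Cardiomyocytes with a Tbx5 UMI, 162, 36, 244 and 113 cells, were compared with those without in the same way, and 94 of 9795 genes (0.96%) were called, Tbx5 included. Of the 7 canal and inflow genes tested 2 rose, with a median of 0.42 over the 7 against 0.01 over all genes, and of the 10 partner factors 1 rose and 1 fell. The sinus node homeobox gene Shox2 had 0.918, 7.43, 223 and 205 CPM against 1.00, 0, 92.9 and 52.4 CPM, a log2 fold change of 1.56 ± 0.21 with an edgeR adjusted p of 0.00871. Hcn4 rose by 2.05 ± 0.40 and Gata4, a partner of Tbx5, by 0.73 ± 0.10, both in 4 of 4 libraries, while Isl1, a second heart field factor, fell by 1.23. Median depth was higher in the Tbx5-positive cells in 3 libraries and lower at E10.5, with 14436 against 15538 UMIs, and its part in these changes was not tested beyond groups set on thinned cells. Among the largest rises, beside Hcn4, were those in Spink1, in Gal and in Wnt2, a Wnt ligand gene of the venous pole that had 310, 365, 301 and 342 CPM against 83.1, 108, 89.2 and 42.6 CPM. The largest falls were in Nkx2-6, a pharyngeal and outflow homeobox gene (-4.10 ± 0.36), Kazald1, Lmo2, Rprm and the growth factor gene Fgf10.

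None of the other 4 members was called between Tbx5-positive and Tbx5-negative cardiomyocytes, in edgeR or in DESeq2, and 1 of the 4, Tbx3, had an unadjusted edgeR p under 0.05. Tbx3 was measured with 17.7, 11.1, 21.4 and 24.4 CPM against 12.7, 1.58, 8.29 and 9.41 CPM, higher in 4 of 4 libraries, a log2 fold change of 1.13 ± 0.24 and an edgeR adjusted p of 0.0774. Without E8.0, the library with the smallest gap, the change was 1.44 with an edgeR adjusted p of 0.0235. Tbx18 had 1.84, 14.1, 142 and 27.6 CPM against 0, 3.17, 50.6 and 81.5 CPM, higher in the first 3 libraries and lower at E10.5. Without E10.5 its change was 1.54 with an edgeR adjusted p of 0.0278, against 0.39 and an edgeR adjusted p of 0.936 with it. Tbx20 was alike in both groups in 3 libraries and higher at E8.0, with 455 against 251 CPM.

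**Figure D4:**
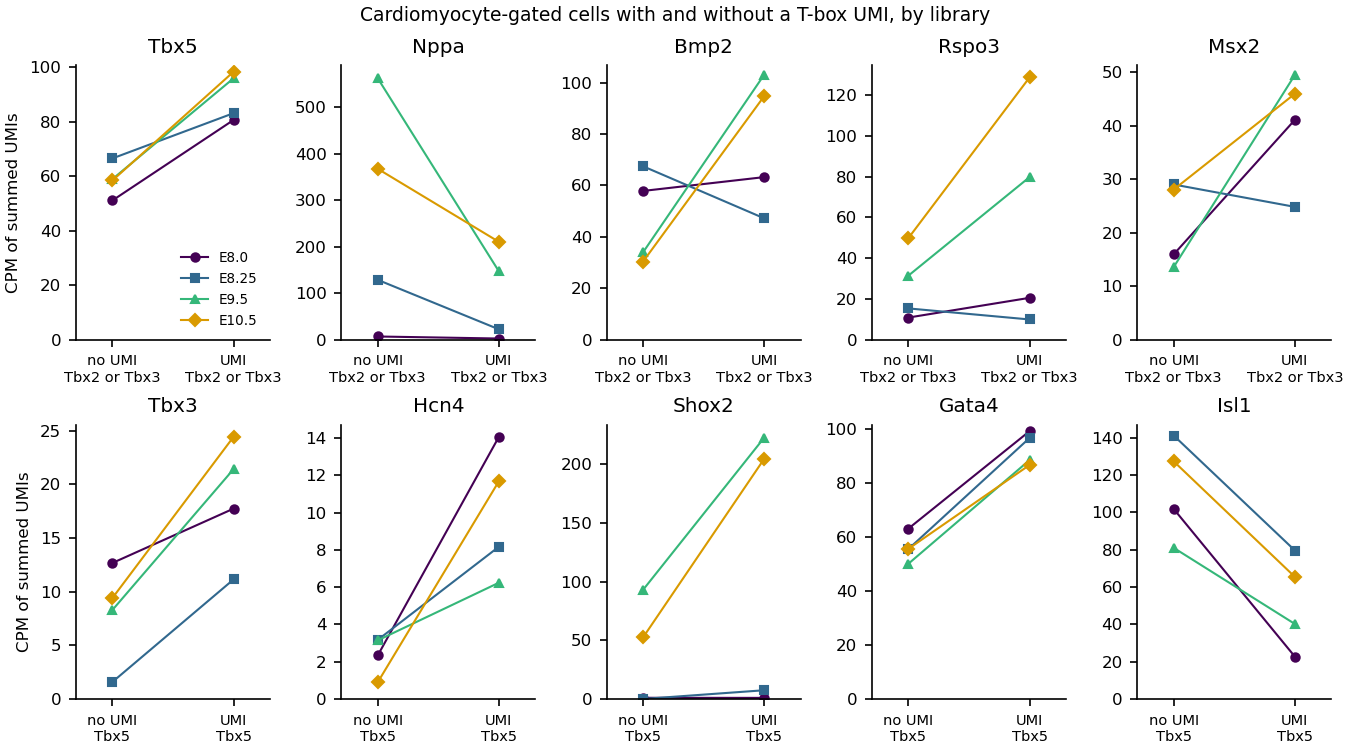
Levels (CPM, linear axes from 0) of named genes in cardiomyocytes with and without a UMI of Tbx2 or Tbx3, and with and without a UMI of Tbx5, in each library. Nppa is lower with Tbx2 or Tbx3 in all 4 libraries, and Tbx5 higher.

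Endothelial cells, which include the endocardium that lines the heart, had less of 4 members than other cells had. Tbx2, Tbx3, Tbx5 and Tbx18 all fell relative to the other cells of the same library, 4 of 5 members where 36.2% of 13960 genes were called and 18.4% were called lower. Tbx18 stood at 0.678, 1.85, 1.17 and 0.730 CPM in endothelial cells against 5.87, 9.77, 44.3 and 27.3 CPM elsewhere, down to the level of erythroid cells at E10.5 (0.678 CPM), and fell by 3.94 ± 0.46 on the log2 scale with an edgeR adjusted p of 0.00124. Tbx2 fell by 2.45 ± 0.35 and Tbx5 by 2.27 ± 0.35, with edgeR adjusted p of 0.00262 and 0.00375. Tbx5 was not absent at E10.5, where 16.3% of 367 endothelial cells (median 18198 UMIs) had a UMI against 2.05% of the deeper erythroid cells. Tbx3 stood at 25.4, 2.02, 4.10 and 2.34 CPM and fell by 1.92 ± 0.47 with an edgeR adjusted p of 0.0212. This call was lost without E8.25 (edgeR adjusted p = 0.0552), without E9.5 (0.0788) and under looser gates (0.0653). Among the list genes, the arterial genes Gja5, Hey1 and Hey2 were higher and the other 5 of 8 chamber genes tested lower (median -2.14 against -0.06 over all genes), the largest fall being that of Nppa.

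Tbx20 was not shifted in one direction in endothelial cells. It stood at 11.9, 2.87, 39.0 and 119 CPM against 63.2, 5.08, 16.7 and 41.2 CPM, below the other cells early and above them late, with an edgeR adjusted p of 0.95. The late level lay mostly in cells with a UMI of Nfatc1, an endocardial factor. Those endocardial cells (159, 52, 78 and 143) had 14.2, 2.26, 61.5 and 222 CPM of Tbx20, and other endothelial cells 10.6, 3.12, 21.1 and 48.5 CPM. At E10.5 the share of cells with a Tbx20 UMI was 62.9% against 27.2%. Over 4 libraries the log2 fold change was 1.54 ± 0.24 with an edgeR adjusted p of 0.0296, as 1 of 9 genes called among 9968 (0.0903%), and Gata4 and Gata5, cardiac partner factors, were also among the 9. The call rested on the 2 late libraries: the change was 1.56 without E9.5, with an edgeR adjusted p of 0.167, and 0.85 without E10.5, with an edgeR adjusted p of 1. DESeq2 gave 1.06 and an adjusted p of 1. Tbx5 was higher in endocardial cells in 4 of 4 libraries, reaching 17.3 against 9.31 CPM at E10.5, but had too few UMIs to be tested.

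The posterior second heart field gate had more Tbx5 and less Tbx18 and Tbx20 than other cells, 3 of 5 members where 13.1% of 13938 genes were called. Tbx5 stood at 9.09, 14.1, 71.1 and 98.7 CPM against 5.47, 3.89, 23.4 and 18.1 CPM, and rose by 1.61 ± 0.24 on the log2 scale with an edgeR adjusted p of 0.0148. At E10.5 61.0% of these cells had a Tbx5 UMI, the highest share outside atrial cardiomyocytes among sums of at least 20 cells at that stage. Tbx18 stood at 2.45, 5.16, 26.0 and 21.9 CPM against 6.18, 10.1, 47.2 and 26.4 CPM, lower by 0.90 ± 0.14 on the log2 scale. Tbx20 was lower by 1.5 ± 0.31. Each of these calls was lost when some library was left out. Without E9.5 none of the 3 was called (edgeR adjusted p = 0.0596 for Tbx5, 0.0703 for Tbx18 and 0.108 for Tbx20), without E8.25 neither Tbx5 (0.0612) nor Tbx18 (0.0709) was, and Tbx20 was lost without E8.0 (0.107) and without E10.5 (0.0979). Tbx3 and Tbx2 did not pass. Tbx3 stood at 53.0, 16.7, 15.7 and 41.3 CPM, above the other cells in 3 libraries and below them at E9.5, and Tbx2 reached 22.2 CPM at E10.5, where the other cells had 11.3 CPM.

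Set against the anterior second heart field gate, progenitors that feed the outflow tract, the posterior cells had more Tbx5, the 1 member of 5 called. The anterior cells (386, 149, 258 and 159) had 4.36, 3.02, 11.7 and 30.5 CPM of Tbx5, each below the posterior cells of the same library. The log2 fold change was 1.91 ± 0.22 with an edgeR adjusted p of 0.00604, in a comparison where 4.48% of 11909 genes were called, and it was called without any 1 of the 4 libraries. Tbx1 fell by 2.42 ± 0.32 and Hey1 by 1.64 ± 0.15 on the same scale, while Tbx4 rose by 1.80. Tbx18 was higher in the posterior cells in 4 of 4 libraries, with a change of 1.28 ± 0.38 and an edgeR adjusted p of 0.113. It was called when doublets were kept (edgeR adjusted p = 0.0301) and without a filter on low counts (0.0389). Tbx20 reached 120 CPM in anterior cells at E10.5 against 14.3 CPM in posterior ones, while at E8.25 the anterior cells were the lower, with 1.89 against 4.69 CPM, and the gates lay close together in the other libraries (edgeR adjusted p = 0.534).

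Cells of the body wall and septum transversum gate (by Hand1, Mab21l2, Msx1 and others) had more Tbx2 and Tbx3 than the rest of their library, with 3 of 5 members called where 5.72% of 14013 genes were. Tbx2 stood at 11, 3.09, 12.8 and 46.6 CPM against 3.62, 0.826, 3.99 and 11.4 CPM, and rose by 1.76 ± 0.12 on the log2 scale with an edgeR adjusted p of 0.00196. Tbx3 stood at 93.1, 26.9, 52.3 and 73.8 CPM against 34.4, 5.59, 18.8 and 26.1 CPM, a rise of 1.61 ± 0.15 with an edgeR adjusted p of 0.00513. Both were higher in 4 of 4 libraries and were called without any 1 of them, but Tbx3 missed the threshold under stricter gates (edgeR adjusted p = 0.0541). Tbx18 was lower by 1.82 ± 0.23, at 1.34, 3.99, 16.6 and 4.96 CPM, with an edgeR adjusted p of 0.0118. Tbx5 was higher in 4 of 4 libraries by 0.88 ± 0.26, with an adjusted p of 0.108 in edgeR and 0.0223 in DESeq2. Tbx20 was far above the other cells at E8.0, with 145 against 48.9 CPM and 78.0% of cells, and at E8.25, with 25.1 against 3.85 CPM, and below them later, with an edgeR adjusted p of 0.398. Among the list genes, 2 of 9 partner factors, Hand2 and Gata6, were higher and 3, Nkx2-5, Mef2c and Myocd, lower. Tbx4 was higher too, mostly through E8.0, where it stood at 65.9 against 23.1 CPM.

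The mesothelial gate (by Wt1, Upk3b and others) held 44 cells in the E9.5 library and 200 in the E10.5 library but under 20 before, so it was tested in 2 libraries, with 1 residual degree of freedom. Tbx18, the epicardial member, was detected in most of these cells. It stood at 333 CPM (297 to 372) and then 323 CPM (306 to 340), in 84.1 and 83.0% of cells, and the intervals overlapped. The other cells had 38.4 and 15.4 CPM. The log2 fold change was 3.7 ± 0.15 in edgeR and 3.69 ± 0.28 in DESeq2, in a comparison where 15.6% of 14131 genes and 3 of 5 members were called in edgeR. Tbx3 was lower, at 3.21 and 2.52 CPM against 21.7 and 28.5 CPM, a change of -3.42 ± 0.38. Tbx5 stood at 31.0 CPM at E9.5, close to the other cells' 34.6, and at 9.83 CPM at E10.5 against 27.6, and its call was lost in DESeq2 (adjusted p = 0.268). Tbx20 went the other way over time, from 10.7 to 54.4 CPM, against 17.8 and 45.0 CPM elsewhere (edgeR adjusted p = 0.879), and the split of Tbx20 between libraries described above runs through these values too.

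Outside the heart, Tbx18 was detected in paraxial mesoderm at every stage. Paraxial cells (635, 363, 24 and 94) had 27.7, 26.8, 46.5 and 27.4 CPM of it, in 30.4, 42.1, 29.2 and 25.5% of cells, and the 4 intervals overlapped. At E8.0 and E8.25 these were its highest levels among sums of at least 20 cells. Tbx2, Tbx3 and Tbx5 were low in the early paraxial cells, at no more than 2.81 CPM. In cranial mesenchyme Tbx3 was uneven between the early libraries, with 25.8 CPM in the first and 2.17 CPM in the next, and then stood at 33.0 and 52.2 CPM, while Tbx18 had 5.79, 12.2, 26.9 and 21.6 CPM.

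Single cells often held several members at once. At least 2 of the 5 were detected in 25.4, 11.6, 25.4 and 23.2% of retained cells, and after thinning in 7.42, 1.04, 7.26 and 8.15%. In cardiomyocytes the shares were 56.6, 56.9, 51.7 and 60.2%, and in body wall cells 62.3, 43.8, 43.2 and 51.4%. After thinning the shares were 22.3, 13.8, 19.9 and 31.1% in cardiomyocytes and 18.5, 3.75, 12.6 and 20.6% in body wall cells, lowest in both at E8.25, the deepest library. All 5 members were detected together in 3, 2, 1 and 9 cells. The pairs below are given as the number of cells with both, divided by the number that independent detection in the same cells would give. Cells of 1 library are not replicates, so these ratios carry no test, and both depth and mixed compartments can raise them.

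Across all retained cells 4 pairs were found together above that number in 4 of 4 libraries, with thinned cells giving the same 4 of 4. Tbx2 with Tbx3 had ratios of 2 to 2.36. At E8.0, 78.9% (75.1 to 82.3) of cells with Tbx2 also had Tbx3, against 30.3% (29.2 to 31.4) of cells without it. Tbx2 with Tbx5 had ratios of 1.38 to 3.37, Tbx3 with Tbx5, the neighbours on chromosome 5, 1.29 to 3.34, and Tbx5 with Tbx20 1.51 to 2.75. Over all cells Tbx18 was found with the repressors less often than that number: its ratio was 0.371 to 0.682 with Tbx2 and 0.345 to 0.618 with Tbx3, below 1 in 4 of 4 libraries at full depth and after thinning. At E10.5, 6.63% (5.51 to 7.90) of cells with Tbx3 had Tbx18, against 16.9% (16.0 to 17.9) of cells without. The remaining 4 pairs were above 1 in some libraries and below it in others.

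**Figure D5:**
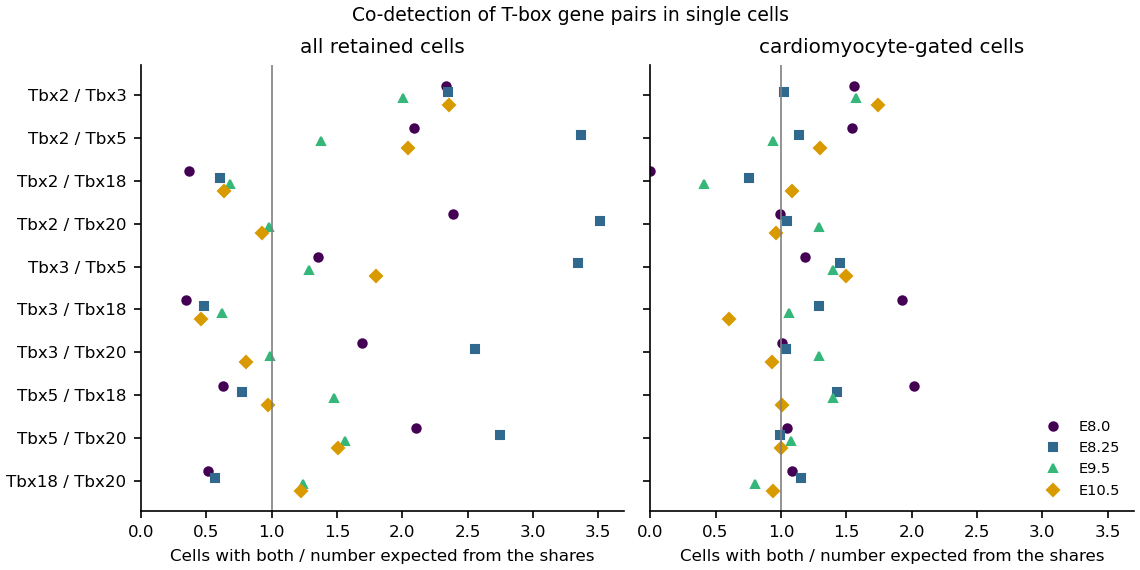
Observed over expected number of cells with both genes of each pair (linear axis, with a line at 1), for all retained cells and for cardiomyocytes, with 1 point per library. Tbx2 with Tbx3 lies above 1 in all 4 libraries over all cells, and Tbx18 with Tbx2 or Tbx3 below 1.

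Within a compartment some of these ratios held and others were different. At full depth Tbx2 with Tbx3 was above 1 in 4 of 4 libraries in cardiomyocytes, posterior second heart field, body wall and cranial mesenchyme. After thinning it was above 1 in 4 of 4 in the posterior gate and 3 of 4 in the others. Tbx3 with Tbx18 was never above 1 in posterior (0.412 to 0.970), body wall (0 to 1) and cranial mesenchyme cells (0.292 to 0.437). In the posterior gate Tbx2 with Tbx18 was also never above 1, at 0.531 to 0.962. Tbx3 with Tbx18 was above 1 in 3 of 4 libraries in cardiomyocytes, at 0.602 to 1.92, though in 0 of 4 after thinning, and Tbx2 with Tbx18 was above 1 in 3 of 4 in body wall cells, at 0.955 to 1.47, and in 1 of 4 after thinning. In cardiomyocytes Tbx5 with Tbx20 had ratios of 0.991 to 1.08, so that at full depth Tbx20 was detected about as often with Tbx5 as without. At E10.5, 92.0% of Tbx5-positive and 92.4% of Tbx5-negative cardiomyocytes had Tbx20, which left the ratio little room to rise. After thinning the ratios were 0.215 to 1.13. Counting only cells with at least 2 UMIs of a gene, they were 1.03 to 1.32, above 1 in 4 of 4 libraries. On that count at E8.0, 92.1% (85.0 to 96.5) of cardiomyocytes with Tbx5 had Tbx20, against 77.4% (71.4 to 82.7) of the others. Tbx3 with Tbx5 stayed above 1 in 4 of 4 libraries, at 1.19 to 1.5, and after thinning in 2 of 4. At E9.5, 74.4% (63.2 to 83.6) of cardiomyocytes with Tbx3 had Tbx5, against 48.7% (43.6 to 53.8) of those without. Tbx5 with Tbx18 was above 1 in 4 of 4 libraries, at 1.01 to 2.02, and after thinning in 3 of 4. At E9.5, 45.5% (39.1 to 52.0) of cardiomyocytes with Tbx5 had Tbx18, against 18.1% (13.2 to 23.8) of those without. Tbx20 was less often detected with Tbx18 at that stage, in 45.3% (37.2 to 53.7) of cardiomyocytes with Tbx18 against 62.3% (56.6 to 67.7) without. In the mesothelial gate at E10.5 the same pair went the other way, with Tbx20 in 55.4% (47.5 to 63.1) of cells with Tbx18 and 17.6% (6.76 to 34.5) of cells without.

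The genes whose levels ran most like each member were read from 37 sums of at least 20 cells, 1 per gate and library, on log2(CPM + 1) over 8341 genes. These sums share libraries and depth, so the correlations are a description with no test. Tbx2 ran most like Tbx5 and Unc5c (both Pearson r 0.779), and Tbx3 like Htatsf1 (0.761). Tbx5 ran most like Wnt2 (0.893), which is a marker of the posterior second heart field gate, and Gata5 (0.852). Tbx18 ran most like Flrt2 (0.815), and Tbx20 like Unc5b (0.860), a gene with the same split between libraries in 5 of the 6 gates. Among the members themselves, Tbx2 with Tbx3 had r of 0.670, Tbx5 with Tbx20 0.639, and Tbx18 with Tbx20 -0.01.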

How the data were processed

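Cells of 1 library per stage were made with the 10x Chromium 3′ v2 kit, and per the labels' processing notes the authors used Cell Ranger 3.1.0 with the mm10 build. The deposited values are whole UMI counts per gene and cell, which count molecules near transcript 3′ ends, so CPM was not divided by gene length. From these counts, cells with at least 1000 genes and at most 10% mitochondrial UMIs were kept, and doublets were removed by Scrublet score (scanpy 1.11.5) at 0.8% per 1000 cells. Fixed marker gates assigned cells, and UMIs were summed per library and gate (at least 20 cells). Sums were tested with edgeR 4.0.16 (R 4.3.3; quasi-likelihood, TMM, filterByExpr, library as block, Benjamini-Hochberg over all genes tested, called under 0.05; SE from the fold change and its F statistic), tested first on simulated data. Comparisons share cells. Libraries are stages, not replicates of a stage. With the library as a block, p-values and SEs rest on how the difference between sides varied over libraries, with dispersion moderated across genes. In the mesothelial and atrial comparisons, with 2 libraries each, they lean on that moderation and do not measure spread between libraries. DESeq2 1.42.0, other gates, thinning to 5000 UMIs, other filters and leaving out each library were alternatives. Besides the members, lists were described by counts with the called genes of smallest adjusted p as examples, the 5 largest rises and falls were named in the T-box splits (1 gene is not reported here), and the 3 most correlated genes were read per member. Members and lists were chosen with earlier results of these data known.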

Additional observations from a re-analysis of the deposited data

How the results depend on the processing

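Member counts moved most when the library block was dropped: 0 members were then called in cardiomyocytes, the posterior second heart field (alone or against the anterior), the body wall, endocardial cells, the Tbx2 or Tbx3 split and the atrial comparison, and 1 in endothelial cells, where single genes such as Tbx20 in cardiomyocytes kept a change of 3.26. The endocardial count fell to 0 under DESeq2, looser gates and with doublets kept. The Tbx2 or Tbx3 count fell to 0 under looser gates and with groups set on thinned cells (3 libraries). The Tbx5 count rose to 1 without the filter on low counts, under stricter gates (3 libraries) and on thinned cells (3 libraries). Posterior against anterior and atrial against ventricular each rose to 2 without the low filter and with doublets kept. The atrial count fell to 0 under looser gates, where 3 libraries entered the fit. Leaving out 1 library gave 0 to 2 called members in the posterior second heart field, 0 to 1 in endocardial cells and 0 to 1 in the Tbx5 split. Of the results for single genes and pairs, 473 kept their direction and side of the threshold, 37 lost and 17 gained a call, 8 counts moved, and no tested result changed direction past the threshold.

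The last library relative to the first, as a log2 ratio over all cells, shifted when CPM left out haemoglobin, mitochondrial and ribosomal protein genes (Tbx2 1.67, Tbx3 -0.40, Tbx5 2.32, Tbx18 2.40, Tbx20 -0.22) and when erythroid cells were left out (Tbx2 1.81, Tbx3 -0.25, Tbx5 2.47, Tbx18 2.56, Tbx20 -0.078). In cardiomyocytes looser gates turned the Tbx3 ratio to -0.49 and moved Tbx20 to 0.11, and stricter gates moved Tbx18 to 4.62. Over all cells, Tbx5 with Tbx18 was above the expected number in 3 libraries after thinning and in 2 with doublets kept, against 1.

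The number of all genes called, and with it the shares printed beside the member counts, moved by over 1.5 times in many settings. Without the library block it fell everywhere (cardiomyocytes 4249 to 1406, endothelial 5052 to 2422, posterior second heart field 1829 to 84, mesothelial 2199 to 64, body wall 801 to 29, endocardial 9 to 1, posterior against anterior 534 to 25, Tbx2 or Tbx3 split 67 to 2, Tbx5 split 94 to 1, atrial 380 to 79). DESeq2 gave 3005 in the posterior second heart field, 1686 body wall, 838 mesothelial, 17 in the Tbx2 or Tbx3 split, 3 endocardial and 157 atrial. Without the low filter it was 264 endocardial, 906 posterior against anterior, 140 and 471 in the Tbx2 or Tbx3 and Tbx5 splits and 1077 atrial. Looser gates gave 10 in the Tbx2 or Tbx3 split and 91 atrial, stricter gates 57 in the Tbx5 split, groups on thinned cells 29 in the Tbx2 or Tbx3 split, doublets kept 5 endocardial, 38 in the Tbx2 or Tbx3 split and 746 atrial, and no TMM 571 atrial. Leaving out a library gave 2441 (E9.5) and 2766 (E10.5) in cardiomyocytes, 652 (E8.25) to 1159 (E10.5) for any library in the posterior second heart field, 446 (E8.0), 470 (E8.25) and 267 (E9.5) in the body wall, 309 (E8.0), 145 (E8.25) and 274 (E9.5) for posterior against anterior, 30 (E9.5) in the Tbx2 or Tbx3 split, 41 (E8.25) and 51 (E10.5) in the Tbx5 split, and 31 (E8.0), 50 (E8.25), 1 (E9.5) and 1 (E10.5) in endocardial cells. The cause of these shifts was not tested. Leaving out a library left the mesothelial and atrial comparisons with 1 library and no test, and gates on thinned cells gave no test for the mesothelial, endocardial and atrial comparisons, nor stricter gates for the atrial one. At these depths 0 UMIs in a small sub-gate does not show absence.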
